A study of Mus musculus with 4 samples.

Results

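The 34 genes described here encode subunits of the ionotropic glutamate receptors, the metabotropic glutamate receptors and the 2 kinds of GABA receptor. They were taken from a list of gene names and all 34 were found among the 21938 protein-coding genes on chromosomes 1 to 19, X and Y of the GENCODE M21 basic annotation of the mouse genome (build GRCm38). The list holds 3 AMPA, 5 kainate, 7 NMDA, 1 delta, 7 metabotropic, 9 GABA-A and 2 GABA-B receptor genes, and other genes of these families are not analysed here. Binding of CTCF was measured by ChIP-seq, which sequences the DNA bound by a protein, in left cerebral cortex. The tissue came from females of B6CASTF1/J, an F1 hybrid strain, that were adult at 2 months of age. There were 4 libraries, as 2 technical replicates each of pool I and pool J, every pool was made of 4 biosamples, and fragments were selected between 200 and 600 bp. Both pools are of the same strain and no treatment is given, so pool I and pool J are replicates and not conditions.

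Glutamate is the main excitatory and GABA the main inhibitory transmitter of the cortex. AMPA, kainate and NMDA receptors are cation channels assembled from several subunits, GABA-A receptors are chloride channels, and the metabotropic and GABA-B receptors act through G proteins. CTCF is a zinc finger protein that binds a long DNA motif, and together with cohesin it anchors chromatin loops, mostly between motifs that point towards each other, so its sites in and around a gene mark candidate loop ends and boundaries. The deposited lists hold binding sites and no expression, so the tissue could not be checked against marker genes, and cells of all types and both parental alleles are summed in each value.

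The main list held 44672 peaks that passed the irreproducible discovery rate (IDR) threshold of 0.05 when pool I and pool J were compared as replicates. The other lists came from the pooled reads (50827 peaks), from pool I alone (82131 peaks) and from pool J alone (52658 peaks). Each peak has a summit, its base of highest enrichment, and a signal value set by the authors, whose unit is not stated. Signal is therefore given below as a percentile, the percentage of the peaks of the same list with a lower signal. A promoter summit is one within 1000 bp of an annotated transcription start site of the gene. A motif match is a 20 bp stretch within 50 bp of the summit, on either strand, that scored at least 11.7 on a matrix learned from the strongest peaks, whose most frequent bases read tggCCAccAGggGGCgctag (capitals mark positions where a base has a share of at least 0.8). Of all summits of the main list 66.3% had a match, against 0.932% of flanking windows on the chromosomes not used to learn the matrix.

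The 8 stretches of genome sequence that follow lie under the strongest promoter summit of each receptor group that had one and under the strongest summit of each GABA-A gene cluster. They are shown because the promoter and cluster results turn on these sites. Each is 60 bp of the GRCm38 reference, written 5′ to 3′ on the strand named, and capitals mark the motif match. Of the 8 most conserved motif positions, Grm4 matched all 8, and Grik4, Grin2a, Gabbr1 and the cluster sites near Gabrb2 and Gabrb1 matched 7 each. The sites at Gabra5 and in Gabrg3 had no match, and their best windows scored 11.5 and 11, close to the threshold of 11.7. Those windows matched 6 and 7 of the 8 positions.
Grik4 promoter, chr9:42944897-42944956, minus strand: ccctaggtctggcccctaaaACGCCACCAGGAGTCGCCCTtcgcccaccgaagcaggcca
Grin2a promoter, chr16:9993868-9993927, minus strand: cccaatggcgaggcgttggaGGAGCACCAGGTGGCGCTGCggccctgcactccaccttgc
Grm4 promoter, chr17:27520741-27520800, minus strand: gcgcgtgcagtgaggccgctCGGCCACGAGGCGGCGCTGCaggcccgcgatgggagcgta
Gabbr1 promoter, chr17:37050041-37050100, plus strand: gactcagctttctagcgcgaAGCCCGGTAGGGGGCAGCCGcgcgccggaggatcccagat
Gabra5 promoter, chr7:57510030-57510089, plus strand: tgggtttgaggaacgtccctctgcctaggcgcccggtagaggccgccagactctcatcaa
Gabrg3 intron 1, chr7:57384296-57384355, plus strand: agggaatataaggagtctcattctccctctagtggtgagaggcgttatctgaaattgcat
Gabrb2 intron 3, chr11:42423434-42423493, minus strand: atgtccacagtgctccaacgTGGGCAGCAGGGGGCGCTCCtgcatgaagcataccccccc
Beyond the far end of Gabrb1, chr5:72172780-72172839, plus strand: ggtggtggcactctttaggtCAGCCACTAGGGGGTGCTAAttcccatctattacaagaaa

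Promoter summits were found at 11 of the 34 receptor genes (32.4%), where 20.8% of all protein-coding genes had one. The receptor genes are long, with a median of 197 kb against 17.4 kb for all protein-coding genes, and longer genes more often had a promoter summit. Among genes of over 100 kb, 8 of 21 receptor genes had one (38.1%), where 31.6% of the 2492 protein-coding genes of that length had one. The receptor share therefore lay near that of other long genes. NMDA receptor genes made up the most, with 4 of 7, followed by 3 of 9 GABA-A, 2 of 5 kainate, 1 of 2 GABA-B and 1 of 7 metabotropic genes, while the 3 AMPA genes and the delta gene had none. In bulk tissue, fewer cells with CTCF at a site and less CTCF there per cell cannot be told apart.

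The NMDA receptor is built from the obligatory subunit GluN1 (Grin1), the glutamate-binding GluN2 subunits (Grin2a to Grin2d) and the glycine-binding GluN3 subunits (Grin3a and Grin3b). Grin2a had a summit 688 bp downstream of a start, in intron 1, at percentile 75.0 with a motif match on the strand of the gene. Its signal was 291 in pool I and 161 in pool J. Grin2b had its promoter summit 196 bp upstream of the start, at percentile 64.1 with a match, with signals of 249 in pool I and 126 in pool J. The promoter summits of Grin2c and Grin3a were weaker and had no match. That of Grin2c was 82 bp upstream of an internal start (percentile 47.2), and that of Grin3a was 280 bp upstream (percentile 42.9). Grin1, Grin2d and Grin3b had no promoter summit in any of the 4 lists. The nearest summit lay 2316 bp from a start of Grin2d, 9501 bp from one of Grin1 and 10648 bp from that of Grin3b.

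Kainate receptors combine GluK1 to GluK3 (Grik1, Grik2, Grik3), which can form channels alone, with GluK4 and GluK5 (Grik4, Grik5), which need one of them. Grik2 had a promoter summit 62 bp upstream of its start at percentile 55 and with no match. Grik4 had a pair of promoter summits, both with a match. One lay 420 bp upstream of the start (percentile 58.6) and the other 98 bp downstream of an internal start, in the 5′ UTR of the shorter transcript (percentile 27.9). Grik1, Grik3 and Grik5 had none in any of the 4 lists.

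The metabotropic receptors fall into group I (here Grm5), group II (Grm2, Grm3) and group III (Grm4, Grm6, Grm7, Grm8), of which the last 2 groups lower cyclic AMP. Grm4 carried the strongest summit inside any receptor gene or its promoter window, rank 226 of 44672 (percentile 99.5). It lay 630 bp downstream of the 5′-most start, in intron 1. Its signal was 399 in pool I and 268 in pool J, and it was at percentile 99.8 of the pool I list and 98.7 of the pool J list. A second Grm4 summit, 627 bp upstream of an internal start, was at percentile 31.7. Both had a match on the strand of the gene. Of the other metabotropic genes none had a promoter summit in the main list.

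GABA-A receptors are pentamers, usually of alpha, beta and gamma subunits. Gabra5, whose alpha subunit is known mainly from hippocampal receptors outside synapses, had a summit 1 bp upstream of its 5′-most start, at percentile 53.9, with signals of 202 in pool I and 96.1 in pool J. Gabrg3, a gamma subunit gene, had one 273 bp upstream at percentile 30.8. Gabra2, a synaptic alpha subunit gene, had 2 weak summits, 258 and 466 bp upstream, at percentiles 10.4 and 8.54. None of these 4 GABA-A promoter summits had a match. GABA-B receptors are pairs of 1 Gabbr1 and 1 Gabbr2 product, and Gabbr1 is known to make its main isoforms from separate starts. The stronger of the Gabbr1 summits lay 583 bp upstream of the internal start (percentile 77.2, with a match, signals of 311 in pool I and 155 in pool J), and the weaker lay 496 bp downstream of an upstream start (percentile 1.61, no match). Gabbr2 had no promoter summit, and its nearest summit was 1770 bp from the start.

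**Figure D1:**
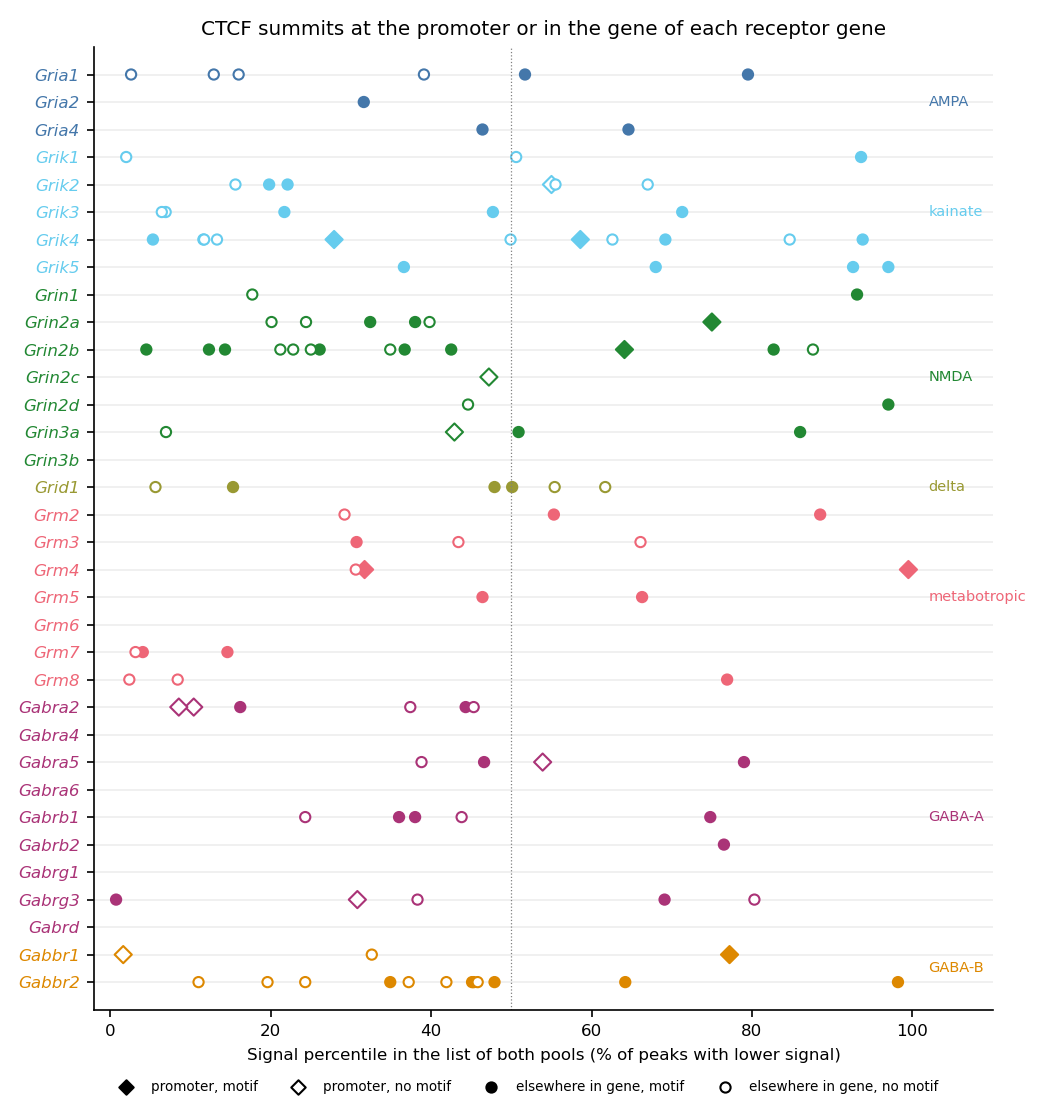
Signal percentile (horizontal axis, percentage of peaks of the list of both pools with a lower signal) of every summit in each receptor gene or within 1000 bp of its start; diamonds are promoter summits, circles other summits in the gene, and filled symbols have a motif match. Grm4 holds the highest point (99.5), and 6 genes (Grin3b, Grm6, Gabra4, Gabra6, Gabrg1, Gabrd) have none.

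Over all receptor genes there were 15 promoter summits, with a median percentile of 47.2, and 7 had a match (46.7%). The 4729 promoter summits of all protein-coding genes had a median percentile of 44.9, and 38.5% had a match. Promoters of receptor genes with a summit had a median GC content of 61.5% in the 500 bp to each side of the 5′-most start, and a ratio of observed to expected CpG of 0.649. The 23 promoters of receptor genes without one had medians of 58.3% and 0.524. All protein-coding genes gave 59.1% and 0.717 with a summit, and 53.8% and 0.474 without. The ranges overlapped, at 53.4% to 71% GC in receptor promoters with a summit and 38.7% to 76.7% in those without. In Grin2a, Grin2c and Gabbr1 the promoter summits lay over 1000 bp from the 5′-most start, so the composition there is not that around the summit.

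The 11 receptor promoters were called in all 4 lists. In the list of the pooled reads 12 receptor genes (35.3%) had a promoter summit, where 23.8% of protein-coding genes had one. In the larger list of pool I it was 16 (47.1%), where 37.4% of protein-coding genes had one, and in the list of pool J it was 12 (35.3%), where 25.2% had one. Grm8, a group III receptor gene, was called in those 3 lists and missed the main one, in which its summit 101 bp upstream of the start had an IDR of 0.114. Its signal percentile was 6.17 in the pooled list, 38.5 in the list of pool I and 16 in that of pool J, and percentiles of lists of unequal length show no change between them. The AMPA gene Gria1, the delta gene Grid1, the group I gene Grm5 and the gamma subunit gene Gabrg1 were called in pool I alone, at percentiles of 6.84, 19.8, 23.8 and 12.2, and the IDR of the matching summits between the pools was 0.682 in each case. No peak in any thresholded or ranked list had its summit in the promoter window of Gria2, Grik5, Grin2d, Grin3b, Gabra4, Gabrb1 or Gabbr2.

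**Figure D2:**
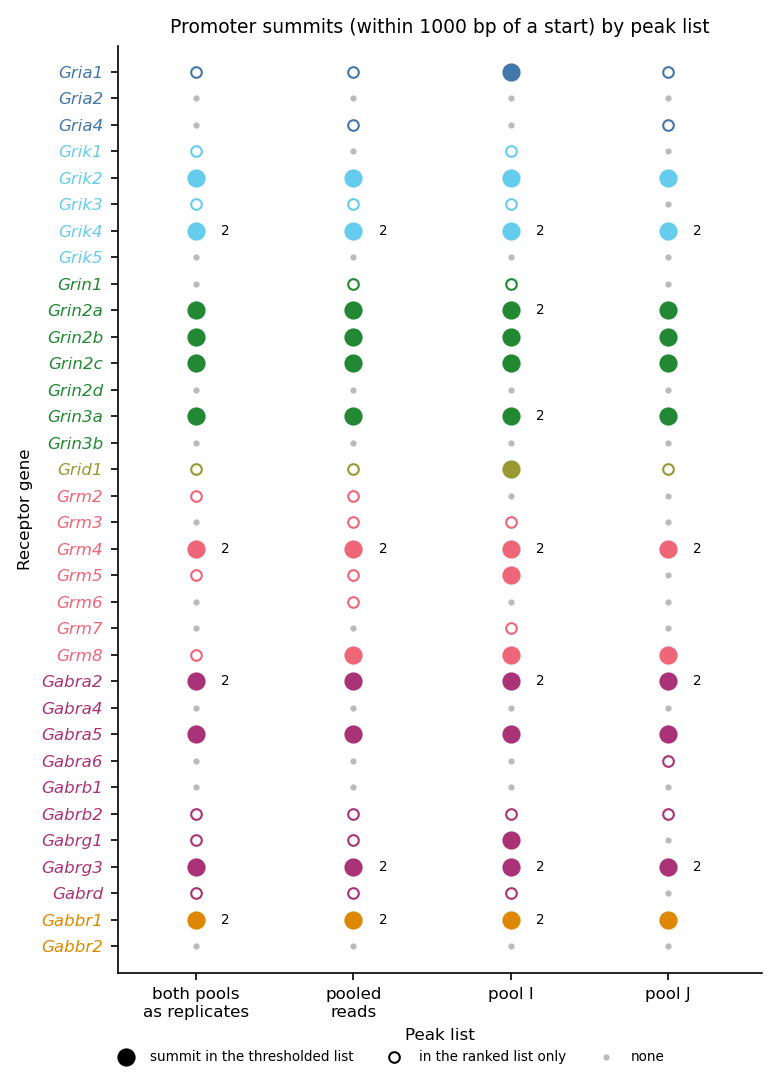
Promoter summits of each receptor gene in the list of both pools as replicates, of the pooled reads, of pool I and of pool J; large dots are summits in the thresholded list (a number beside a dot is their count where it is over 1), open circles summits in the ranked list only, and small grey dots none. The same 11 genes are filled in all 4 columns, and pool I fills 16.

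Beyond the promoter window, summits were often close to a start. With a window of 5000 bp, 24 of the 34 receptor genes had a summit (70.6%), where 38.8% of all protein-coding genes had one. Among those over 100 kb it was 18 of 21 (85.7%), where 51.4% of all protein-coding genes over 100 kb had one. The metabotropic genes showed the widest step between the windows, with 1 of 7 at 1000 bp and 6 of 7 at 5000 bp; the exception, Grm7, had its nearest summit 99865 bp from a start. Of the AMPA genes 1 of 3 had a summit within 5000 bp, Gria2 (2716 bp). Gria1 followed at 5688 bp, and Gria4 had none nearer than 258587 bp. The delta gene Grid1 had one at 3216 bp. The median distance from a start to the nearest summit was 2470 bp for the receptor genes and 8710 bp for all protein-coding genes, and 1770 bp and 4525 bp for those of over 100 kb. Along the receptor genes of over 100 kb, 24 of 99 summits (24.2%) lay in the 10% of the gene next to its 5′ end, 67 (67.7%) in the middle and 8 (8.08%) in the 10% at the 3′ end. In all protein-coding genes of over 100 kb the shares were 13.7%, 73.4% and 12.9% of 11016 summits.

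Inside the genes, 28 of 34 receptor genes (82.4%) held at least 1 summit, where 45.8% of all protein-coding genes did. All 21 receptor genes of over 100 kb held one, where 92.3% of protein-coding genes of that length did. Of the 13 receptor genes of up to 100 kb, 7 held one (53.8%), where 39.8% of protein-coding genes of that length did. The 6 without were all in this shorter class. Grin3b (6.48 kb), Grm6 (15.5 kb), which is known as the receptor of retinal bipolar cells, Gabra6 (14.6 kb), known from cerebellar granule cells, Gabrd (13.1 kb), known from receptors outside synapses, Gabra4 (88.6 kb) and Gabrg1 (91.6 kb) made up this set. Adding 50 kb to each side brought the count to 32 of 34 (94.1%), where 86.4% of protein-coding genes had a summit in that span. By length the shares were close. Receptor genes of up to 100 kb gave 84.6%, against 85% of protein-coding genes of that length. Those of over 100 kb gave 100%, against 97.4%. Gabra6 and Gabrg1 remained without one, and Grin3b gained 7, Gabrd 4, Gabra4 3 and Grm6 2.

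The receptor genes held 117 distinct summits. Of these 111 lay outside annotated exons, 29 of them in the first intron of a transcript. Both Grin2d summits and the Gabrb1 summit at percentile 43.8 lay in the gene span but outside every transcript of the basic annotation. A further 4 were in a 3′ UTR (1 in Grik5, 1 in Grin1 and 2 in Grm2), 1 was in the 5′ UTR of Grik4 and 1 was in a coding exon of Grm4. Their median percentile was 39.1, against 45.8 for summits in all protein-coding genes. A motif match was present at 64 of the 117 (54.7%, exact binomial 95% interval 45.2% to 63.9%), against 64.1% of those in all protein-coding genes, a share just above that interval. In receptor genes of over 100 kb the share was 53.5% (43.2% to 63.6%). All protein-coding genes of that length gave 63.4%, which lies inside both intervals. Of the 117 summits, a match was present at 33 of 57 on the odd-numbered autosomes, used to learn the matrix, and 31 of 60 on the other chromosomes. The match lay on the strand of the gene at 37 and on the other at 27. Of the 39 receptor gene summits at or above percentile 50 of signal 29 had a match (74.4%), and of the 78 below it 35 had one (44.9%). Over all summits of the main list, in genes or not, the shares were 78.4% and 54.2%. The group shares ran between 46.7% in GABA-B and 58.8% in metabotropic and GABA-A genes, within each other's intervals.

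The long receptor genes held fewer summits for their length than other long genes, and they were also longer. Receptor genes of over 100 kb held 1.11 summits per 100 kb in sum and 1.02 in the median gene. All protein-coding genes of over 100 kb held 1.73 in sum and 1.66 in the median gene. The median lengths of these 2 sets were 394 kb and 168 kb. Whether length accounts for the lower density was not tested. The 13 receptor genes of up to 100 kb held 3.42 per 100 kb in sum, against 3.1 in protein-coding genes of that length. Among the 21 receptor genes of over 100 kb, 14 lay below the median density of 1.66 and 7 above it. The lower quartile was 0.887, and 10 lay below it. The densities of the groups, with summits and lengths summed over their genes, were as follows. The metabotropic genes held 0.63 per 100 kb (exact Poisson 95% interval 0.367 to 1.01, 17 summits), GABA-A genes 0.934 (0.544 to 1.5, 17 summits) and AMPA genes 1.1 (0.503 to 2.09, 9 summits). Kainate genes held 1.5 (0.988 to 2.18, 27 summits), NMDA genes 2.22 (1.45 to 3.25, 26 summits) and GABA-B genes 4.18 (2.34 to 6.9, 15 summits). The delta gene held 0.786 (0.288 to 1.71, 6 summits). The interval of the GABA-B genes lay above those of all groups but NMDA, and that of the metabotropic genes lay below that of the NMDA genes. Neighbours in this order overlapped. The order depended on the list: in that of pool I, where every group held over 1.5 times as many, AMPA genes (3.18) and the delta gene (2.88) stood above kainate genes (2.55), and protein-coding genes of over 100 kb held 3.36. The intervals cover the counting of summits and not the spread between genes of a group, and gene length differs between the groups. Single metabotropic genes ran from 0 (Grm6) to 23.1 (Grm2) per 100 kb, and the GABA-B genes were at 10.3 (Gabbr1) and 3.64 (Gabbr2). The intervals therefore do not show that a group as such differs from another.

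**Figure D3:**
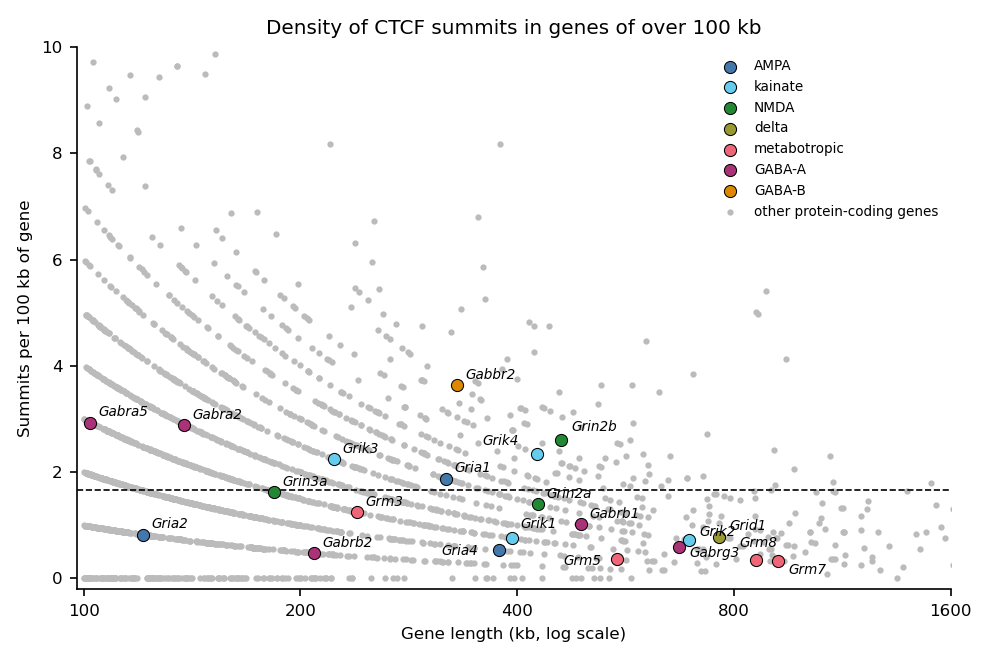
CTCF summits per 100 kb of gene (vertical axis) against gene length in kb (horizontal log axis) for the 21 receptor genes of over 100 kb, coloured by group, and for the other protein-coding genes of that length in grey, of which 19 lie outside the drawn range. The dashed line is the median of all genes of over 100 kb (1.66); 14 receptor genes lie below it, with Grm7, Grm8 and Grm5 the lowest.

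The 3 lowest densities among the long receptor genes were those of Grm7 (0.326), Grm8 (0.349) and Grm5 (0.363). Grm7 (chr6:110645581-111567230), a presynaptic receptor gene and the longest of the set at 922 kb, held 3 summits at percentiles 3.14, 4.05 and 14.6. Its first 579 kb, start included, held none, which is 62.9% of the gene. In Grm5 (551 kb) a stretch of 512 kb lay between its 2 summits, at percentile 46.4 in the first intron and 66.3 in intron 7, and both had a match on the strand of the gene. In Grm8 (860 kb) the longest empty stretch was 383 kb. A long empty stretch was common in long genes, as the median share of the gene in its longest one was 55.1% for receptor genes and 54.3% for all protein-coding genes of over 100 kb. Grm7 held 3 summits in the main list, 10 in the list of pool I and 5 in that of pool J.

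The densest long receptor gene was Gabbr2 (chr4:46662305-46991873, 330 kb) with 12 summits, 3.64 per 100 kb, above 85.5% of protein-coding genes of that length. With 50 kb to each side it held 21. Its strongest summit, in intron 13, was at rank 793 (percentile 98.2), with a match against the strand of the gene and signals of 373 in pool I and 256 in pool J. The other 11 were between percentiles 11 and 64.2. Grin2b (chr6:135713233-136173511, 460 kb) also held 12, at 2.61 per 100 kb, with the strongest at percentiles 87.6 and 82.7 in introns 5 and 4, and 7 with a match. Grik4 (chr9:42518135-42944493, 426 kb) held 10, the strongest at percentile 93.8 in intron 13 with a match against the gene's strand. These 3 genes together held 34 of the 117 summits.

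Several of the strongest summits lay in receptor genes of up to 100 kb. In Grin2d (chr7:45831883-45878378) a summit at rank 1318 (percentile 97.0) lay inside the gene, 2316 bp upstream of the nearest start of the basic annotation. Its match was on the strand opposite to the gene, and its signals were 363 in pool I and 252 in pool J. Grik5 (chr7:25009849-25072346) held 4 summits, all with a match, and 3 of these, in intron 12, were at percentiles 97.0, 92.6 and 36.6. Grin1 held one at percentile 93.1 in intron 18. Among the longer genes, Grik1 (394 kb) held one at percentile 93.6 in its first intron, beside those of Gabbr2 and Grik4 given above. In Grm2, which spans 13.0 kb, 3 summits gave the highest density of the set, 23.1 per 100 kb, with the strongest in the 3′ UTR (percentile 88.5). Over all 117, 8 summits were at or above percentile 90 (6.84%) and 39 at or above percentile 50 (33.3%).

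Among the AMPA genes, Gria1 (chr11:57011387-57330244) held 6 summits, 5 of them in intron 2 between percentiles 2.59 and 51.7 and the strongest in intron 14 (79.5). Gria2, whose subunit limits calcium entry through the channel, held 1 at percentile 31.6 in intron 2, and Gria4 held 2 at 46.4 and 64.6. Each of the last 3 had a match. The delta gene Grid1 (763 kb), whose product binds cerebellins at synapses, held 6 between percentiles 5.63 and 61.7, or 0.786 per 100 kb. Of the genes not yet counted, Grin2a held 6, Grik2, Grik3 and Gabrb1 5 each, Gabra2 and Gabrg3 4 each, Grik1, Grin3a, Grm3, Grm4, Gabra5 and Gabbr1 3 each, Grin1 and Grin2d 2 each, and Grin2c and Gabrb2 1 each.

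GABA-A subunit genes lie in clusters, and 8 of the 9 in the list fall into 3 of them, each taken here with 50 kb to both sides. Gabrd stands apart on chromosome 4. The chromosome 5 cluster (chr5:70751047-72149037, 1398 kb) holds Gabrg1, Gabra2, Gabra4 and Gabrb1, and had 15 summits, 1 per 100 kb. The chromosome 7 cluster (chr7:56716465-57510059, 794 kb) holds Gabrg3 and Gabra5 and had 12, or 1.34 per 100 kb. The chromosome 11 cluster (chr11:42306437-42629028, 323 kb) holds Gabra6 and Gabrb2 and had 2, or 0.473 per 100 kb. The list of pool I gave 22, 18 and 5 summits for the clusters on chromosomes 5, 7 and 11, and that of pool J gave 15, 13 and 2.

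On chromosome 5 no summit lay between Gabrg1 and Gabra2, which are 115 kb apart and both on the minus strand. The interval of 474 kb between Gabra2 and Gabra4 held 5, of which 2 were the weak Gabra2 promoter summits and 1, at percentile 77.0, had a match on the plus strand 155610 bp from the nearest start of Gabra4. Gabra4 and Gabrb1 lie head to head and their gene spans overlap by 196 bp. No summit lay in that overlap, and the nearest was 7505 bp from a start of Gabra4, in Gabrb1, at percentile 43.8. In the basic annotation the only start of Gabrb1 lies 41624 bp from the nearest start of Gabra4. A summit stood 1286 bp from that Gabrb1 start, at percentile 38 with a match. Past the far end of Gabrb1 stood the strongest summit of the cluster, at percentile 79.3 with a plus strand match. Of the 8 matches in this cluster 3 were on the plus and 5 on the minus strand, and of the 7 neighbouring pairs 1 pointed towards each other, 2 away and 4 the same way.

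On chromosome 7 the longest empty stretch, 438 kb, lay inside Gabrg3. It ended at the strongest summit of the cluster, at percentile 80.3 in the first intron, 2545 bp from a start, with signals of 301 in pool I and 182 in pool J and no match. Of the 12 summits, 3 lay within 3072 bp of a start of Gabrg3 (percentiles 80.3, 30.8 and 45.5). A further 3 were in intron 5 of Gabra5 (38.8, 79.0 and 46.6), and 3 stood 1, 3085 and 28673 bp upstream of the 5′ end of Gabra5 (53.9, 65.4 and 57.3). The last 3 were in intron 5 of Gabrg3 (0.719, 38.3 and 69.1). Of the 6 matches 2 were on the plus and 4 on the minus strand, and of 5 neighbouring pairs 2 pointed towards each other, 2 away and 1 the same way. On chromosome 11 the 2 summits stood 19.2 kb apart, 1 between the genes (percentile 9.0, plus strand match) and 1 in intron 3 of Gabrb2 (percentile 76.5, minus strand match), so the pair pointed towards each other across the start of Gabrb2. The rest of Gabrb2, 206 kb or 98.2% of the gene, held none.

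**Figure D4:**
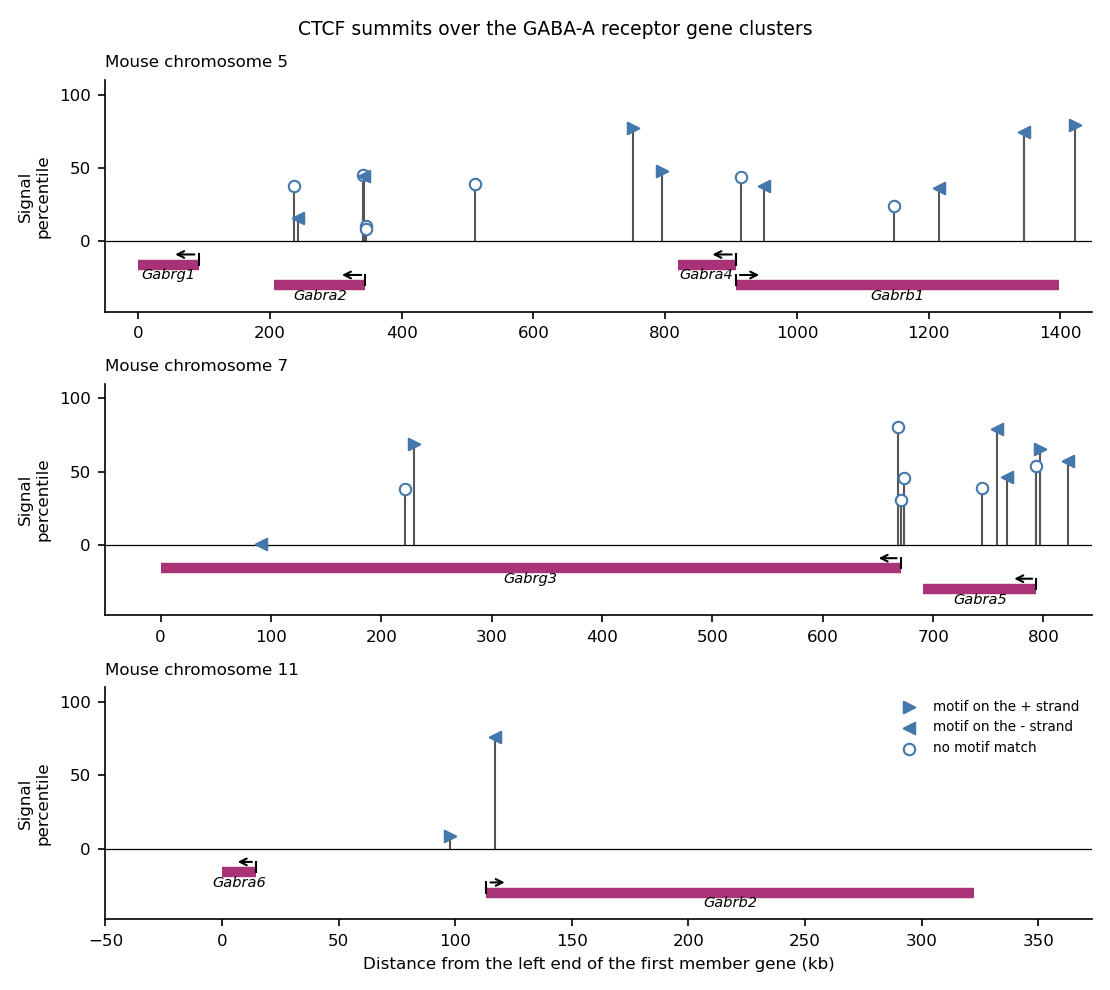
Signal percentile (vertical axis) of the summits over the GABA-A gene clusters on chromosomes 5, 7 and 11, against the distance in kb from the left end of the first gene; bars are the genes of the list with an arrow at the 5′ end of the gene span, triangles point along the strand of the motif match and open circles have none. On chromosome 7, 8 of the 12 summits lie to the right of the 5′ end of Gabrg3 and 1 lies 2545 bp from a start inside it, and the chromosome 11 cluster has 2.

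The pools were compared at these summits. All 117 were covered by a peak of the pool I list, 112 by one of the pool J list (95.7%) and 115 by one of the pooled list. Signal was higher in pool I than in pool J over the whole list, by a median of 1.09 on the log2 scale, and after this was taken off receptor gene summits had a median log2 ratio (pool I over pool J) of 0.13 (SD 0.36 over summits, range -0.57 to 0.87). No receptor gene summit differed from the median by over 1 log2 unit, where 0.47% of all summits did. The ratio moved with strength: its median was -0.24 at receptor gene summits at or above percentile 50 and 0.28 at those below, and over all summits it was -0.25 and 0.25. The highest ratio was at a weak summit in intron 2 of Grik3 (0.87; signals of 105 in pool I and 27.1 in pool J), and the lowest, -0.57, were at strong ones in Grik5 and Grin2d. Each pool is 1 sample, so these differences have no test.

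**Figure D5:**
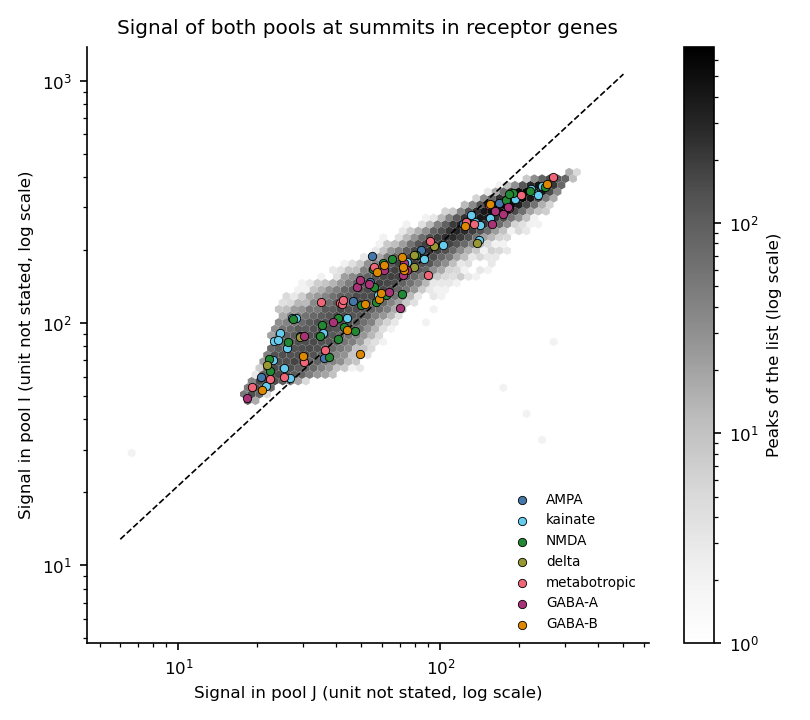
Signal in pool I (vertical log axis, unit not stated) against signal in pool J (horizontal log axis) at the 117 summits in receptor genes, coloured by group, over all peaks of the list in grey; the dashed line is the median ratio of the list. Receptor points follow the grey cloud, above the line at weak and below it at strong summits.

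Genes that serve the same synapses were counted the same way. Of 16 genes that make or carry glutamate and GABA, 2 had a promoter summit, Gad1, which makes GABA (percentile 56.5), and Slc1a2, a glial glutamate transporter (4.09). Of 20 genes for auxiliary and anchoring proteins 4 had one: Neto2, a kainate receptor partner (69.4), Homer1, which binds group I metabotropic receptors (52.7), Gphn, which anchors GABA-A receptors (3.57), and Grip1, which binds AMPA receptors (0.519). Together 6 of 36 had one (16.7%), where 20.8% of all protein-coding genes did, and 31 of 36 (86.1%) held a summit in the gene, where 45.8% of all protein-coding genes and 92.3% of those over 100 kb did. Their median length was 63.3 kb, against 197 kb for the receptor genes and 17.4 kb for all protein-coding genes.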

How the data were processed

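CTCF ChIP-seq libraries of 2 pools were analysed from the authors' deposited lists, 4 thresholded by IDR and 4 ranked. Neither the peak caller, the aligner nor the read depth is given in the sources used here. In the deposited lists the signal of a peak is in a unit that the authors do not state, the score rises with the −log10 IDR, and the ranked lists give the −log10 of the IDR per the authors' columns. Both libraries of a pool were merged upstream, so no value per library was used. The receptor genes and other gene lists were chosen with earlier results of these data known, so no test was made on them.

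Summits were set against starts, genes and clusters of the GENCODE M21 basic annotation in Python 3.11.15, with SciPy 1.17.1, pandas 2.3.3 and numpy 2.4.6. Every receptor gene is accounted for by name. Full values are given for genes with a promoter summit, the strongest and densest of each group, those with no summit in the gene and those whose promoter call differs between lists. The motif matrix was learned from the 1000 strongest peaks on odd-numbered autosomes, with the score that 1% of flanking windows passed. Counting and scanning were tested on simulated data. Signal ratios use the signals of both pools in the ranked list.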

Additional observations from a re-analysis of the deposited data

How the results depend on the processing

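Of 75 alternatives, 60 stayed within 1.5 times the count, or within the interval or SD of the value. The 11 receptor genes with a promoter summit became 9 at 500 bp, 14 at 2000 bp and 24 at 5000 bp, where 15.7%, 26.8% and 38.8% of protein-coding genes had one. They became 8 with the 5′-most start alone (18.8% of protein-coding genes), 11 at an IDR of 0.01 (19.8%) and with whole peak intervals (21.9%), and 14 (Gria1, Grm8 and Gabbr2 added) with the starts of the comprehensive annotation, an alternative chosen after seeing the data, where 25.7% of protein-coding genes had one. The list of pool I, the largest, moved most values: 247 distinct summits, 5 in the chromosome 11 cluster, and per 100 kb 3.18 in AMPA, 2.55 in kainate, 4.53 in NMDA, 2.88 in delta, 1.44 in metabotropic, 1.54 in GABA-A and 9.2 in GABA-B genes. Protein-coding genes of over 100 kb gave 3.36 per 100 kb in that list, 2 in the pooled list, 2.08 in that of pool J and 1.64 at an IDR of 0.01. The stricter motif threshold, passed by 0.1% of flanking windows, left 6.84% of receptor gene summits with a match, against 14.1% of all summits of the main list. The cause was not tested. No paired analysis was possible because the result comes from no test. Leaving out a library was not possible, and the list of each pool stands in for leaving out the other.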
